A study of Mus musculus with 35 samples.

Results

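The comparison set 10 lungs ventilated at high stretch without added CO2 (high stretch normocapnia) against 5 lungs of mice that breathed spontaneously (non-ventilated), 15 of the 35 arrays of the series. It was taken over all 19938 genes, each represented by the probe set that carried exactly 1 gene symbol and had the highest mean over the 35 arrays. The animals were adult males of the inbred strain C57BL/6J, weighing 20 to 25 g, with 1 Affymetrix array per animal and no pooling. High stretch ventilation lasted 3 h at 30 to 35 breaths per minute, with tidal volumes of 35 to 40 mL/kg, peak pressure at 27 cmH2O, end-expiratory pressure at 0 cmH2O, an inspired oxygen fraction of 0.75 and no CO2. The non-ventilated mice breathed room air. A further group, low stretch normocapnia (5 arrays), was ventilated for 3 h in room air at 135 breaths per minute, with 10 mL/kg and 2 cmH2O at end expiration. It divides the total response into a first step, low stretch minus non-ventilated, and a second, high stretch minus low stretch. Lungs were lavaged before they were removed and frozen. The protocol of anaesthesia and tracheostomy is given once for the whole series, and the labels do not say how far it was applied to the non-ventilated mice. Anaesthesia, surgery, ventilation as such, tidal volume, pressure and oxygen therefore cannot be told apart in the total response. The second step raises tidal volume and oxygen and lowers rate and end-expiratory pressure at once, so these cannot be told apart in it either.

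Ventilator-induced lung injury arises when large breaths overstretch the alveolar wall. Stretched epithelium, endothelium and macrophages are known to release cytokines and chemokines, neutrophils gather in the capillaries and airspaces, and the barrier between blood and air becomes leaky. High oxygen and the oxidants of neutrophils add oxidative stress, which cells meet through transcription factors such as NRF2. The question of the comparison is how far lung RNA stood from that of a spontaneously breathing mouse after the whole of an injurious ventilation.

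Lung identity was plain on all arrays. The non-ventilated means were 14.04 for the surfactant gene Sftpc, 13.76 for the club cell secretory gene Scgb1a1 and 12.95 for the alveolar type 1 gene Ager (log2 signal). Array medians lay between 6.96 and 7.04. The correlation between any pair of the 35 arrays of the series ran from 0.961 to 0.993, and none was a copy of another. The number of arrays limits the precision. The first principal component held 50.04% of the variance and separated the groups without overlap. On the second component the non-ventilated arrays ran from -25.1 in replicate 4 to 23.5 in replicate 5. Non-ventilated replicate 5 stood apart from its group in some sets of genes. Genes of stratified squamous epithelium, which lines the oesophagus and upper airway and which are named here after their values were seen, were high in it alone: Krt4 was at 11.24 against 4.69 to 5.21, Krt13 at 11.76 against 5.44 to 6.08 and Sprr3 at 10.69 against 4.81 to 5.24 in the other non-ventilated arrays. In high stretch the same genes reached at most 5.84, 6.72 and 5.65. The mean of 19 mature neutrophil genes was also highest there, at 8.90 against 7.11 to 7.87 in replicates 1 to 4. Values without this array are given for some of the genes and lists that it moved.

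A large part of the lung transcriptome differed between high stretch and non-ventilated lungs. Of 19938 genes, limma called 7237 (36.3%) at a Benjamini-Hochberg adjusted p under 0.05, 3468 higher (17.4%) and 3769 lower (18.9%). The rises were larger than the falls: 286 genes were at least 1 log2 unit higher and 61 at least 1 log2 unit lower, and beyond 2 log2 units there were 52 higher and 1 lower. The median log2 change over all genes was -0.03. In 1671 genes (8.38%) every high stretch array lay above every non-ventilated array, and in 1577 (7.91%) every one lay below. Counts of list members given below stand against these shares over all genes. Bright genes were called more often: a fit of only the genes above the median level called 3137 higher and 2746 lower. For lists of bright genes the shares over all genes are therefore a low yardstick. The first step called 11.8% of the genes and the second 18.3%. Both steps share arrays with the total and with each other, so their values are given side by side. With each array centred on its median the split was 4217 higher and 3037 lower. The calls numbered 7176 without non-ventilated replicate 5.

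**Figure D1:**
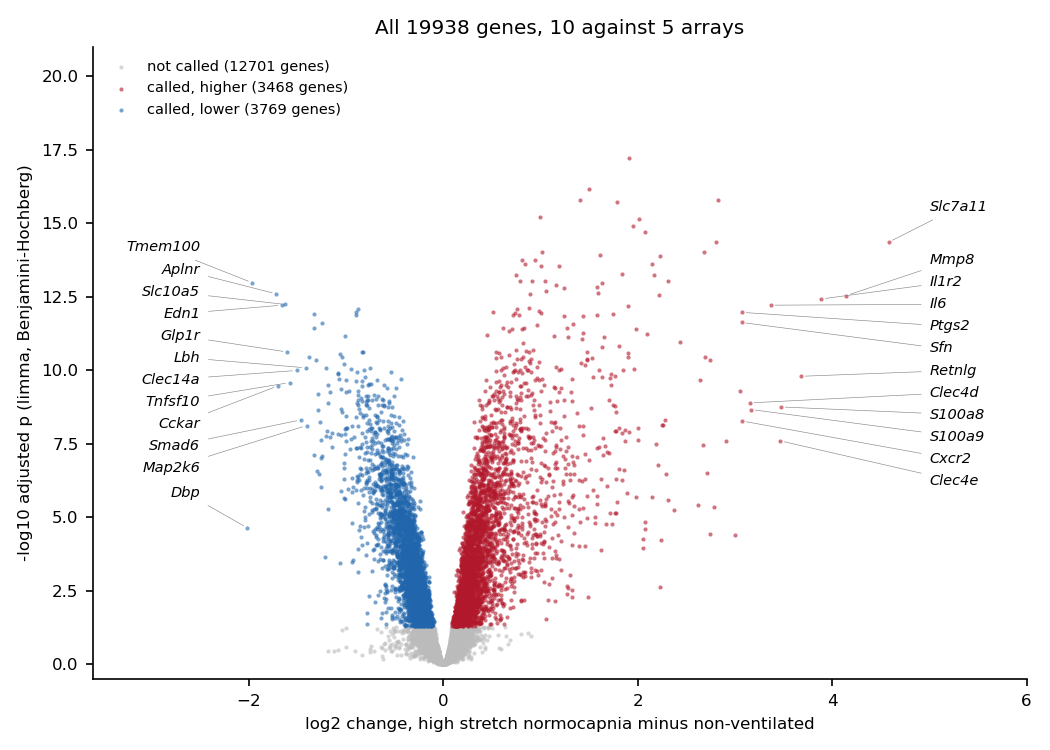
Each point is 1 of the 19938 genes, with the log2 change (high stretch normocapnia minus non-ventilated, 10 against 5 arrays) on the x axis and -log10 of the limma p after Benjamini-Hochberg adjustment on the y axis. Red marks the 3468 genes called higher, blue the 3769 called lower and grey the rest; the 12 largest rises and 12 largest falls of the naming rule are labelled, and the rises reach 4.58 while the falls end at -2.02.

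Genes of mature neutrophils had the largest median rise of the lists. Of 19 measured members 18 rose and 1 fell, with a median log2 change of 2.71, against -0.03 over all genes. Mmp8, the neutrophil collagenase, stood at 6.87, 6.31, 6.09, 6.36 and 8.65 in non-ventilated replicates 1 to 5, and at 10.21, 10.99 and 11.63 (lowest, median and highest of 10) in high stretch. All 10 high stretch arrays lay above all non-ventilated arrays, and replicate 5 was the highest of the latter. The change was 4.15 ± 0.29 (SE), or 17.7-fold (adjusted p 2.84e-13). Il1r2 encodes a receptor that binds interleukin-1 without signalling, and stood at 6.67, 6.49, 5.92, 6.56 and 7.73 without ventilation and at 9.79, 10.62 and 11.24 with it. The groups did not overlap and the rise was 14.8-fold (adjusted p 3.72e-13). S100a8, which encodes 1 subunit of the calcium-binding alarmin calprotectin, read 8.36, 7.17, 6.71, 6.93 and 10.41 in the non-ventilated arrays and 10.72, 11.40 and 11.91 in the ventilated ones. Replicate 5 came close to the lowest ventilated array, and the rise was 11.1-fold. Retnlg, a resistin-like gene of neutrophils, rose 12.8-fold, S100a9, the partner subunit of S100a8, 8.98-fold, and Cxcr2, the receptor by which neutrophils sense CXC chemokines, 8.43-fold. The lectin receptor genes Clec4e and Clec4d, which sense microbial and dead cell ligands, rose 11-fold and 8.9-fold. Without non-ventilated replicate 5 these rises were larger: 24.1-fold for Mmp8, 18.7-fold for Retnlg, 17.1-fold for S100a8, 13.2-fold for S100a9 and 12.5-fold for Cxcr2, and 18 members were again higher. Cxcr4, the receptor that retains neutrophils in marrow and that other leukocytes and vessels also express, was the member that fell (-0.34). Most of the rise of this list was already present at low stretch: its median was 2.67 in the first step and 0.03 in the second. Mmp8 was at 4.21 and -0.06. In whole lung RNA, more or fewer cells of a type and more or less RNA per cell cannot be told apart. Granule genes made by neutrophil precursors in marrow were called higher for 3 of 10 members. Ngp rose 6.7-fold and Lcn2, an iron-binding protein that injured epithelium makes as well, 1.66-fold, while the defining precursor genes Mpo (0.03) and Elane (-0.08) did not pass. The third, Ctsg (0.23), lost its call without non-ventilated replicate 1, 2 or 5 or high stretch normocapnia replicate 5.

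**Figure D2:**
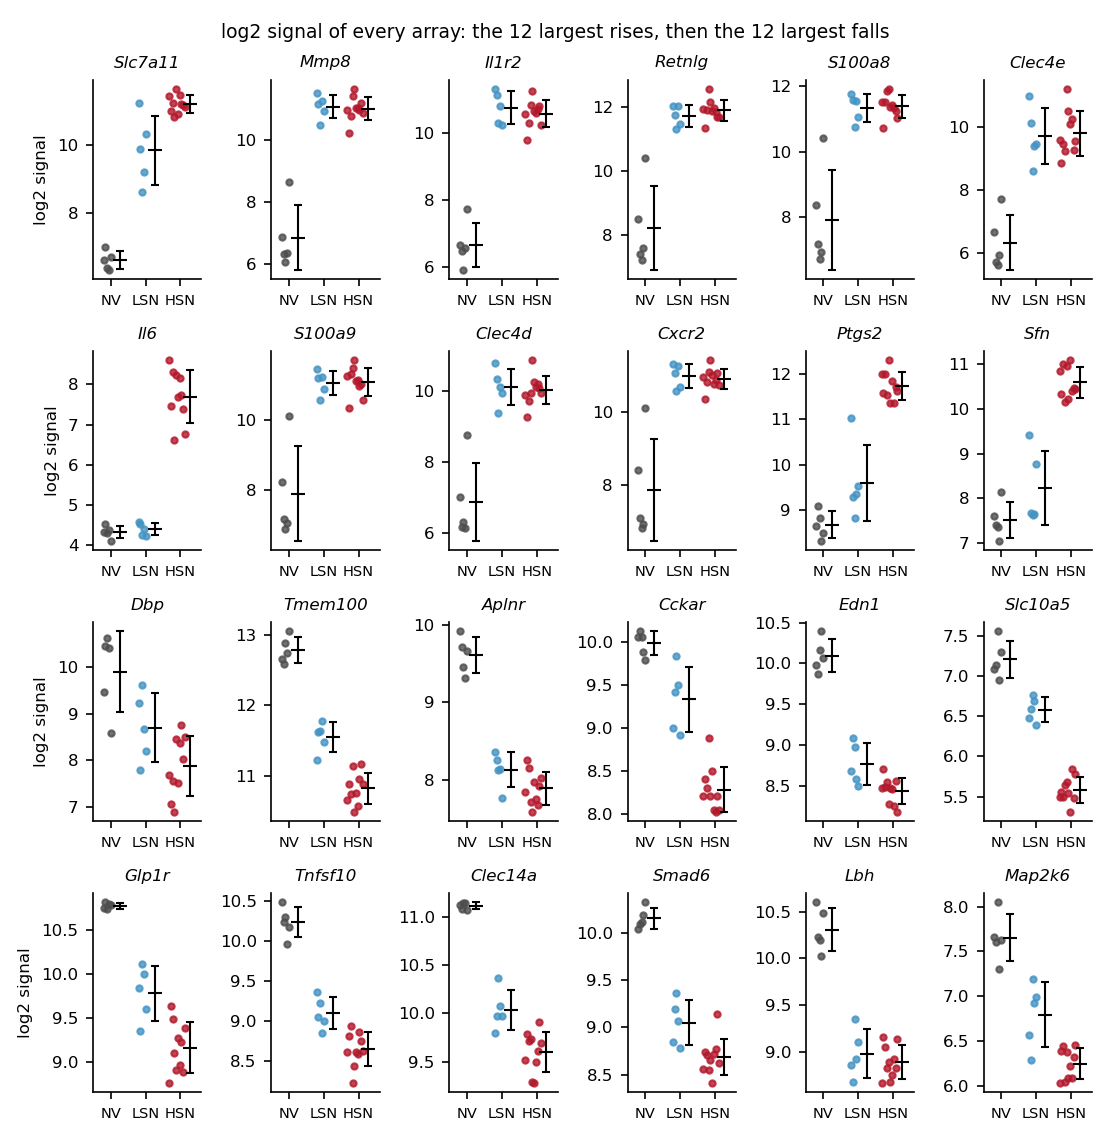
Each panel shows 1 gene, with the log2 signal of every array on the y axis (scales differ between panels) for the non-ventilated (NV, 5), low stretch normocapnia (LSN, 5) and high stretch normocapnia (HSN, 10) groups, and a bar for mean and SD beside each. The neutrophil genes are high in both ventilated groups, Il6 is high in HSN alone, and in Dbp the NV and HSN arrays overlap.

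Some chemokines and cytokines changed in the second step and others in the first. Il6, the cytokine most used as a readout of ventilator injury, stood at 4.32, 4.54, 4.30, 4.37 and 4.11 in the non-ventilated arrays and at 6.62, 7.72 and 8.60 in high stretch. No array of the groups overlapped. Its rise was 10.3-fold (3.37 ± 0.24, adjusted p 6.05e-13), of which 0.08 lay in the first step and 3.29 in the second. Among 20 inflammatory cytokines 9 were higher, 1 lower and 10 not called. Il1b, the inflammasome cytokine, stood at 7.90, 7.12, 6.80, 6.86 and 9.50 and at 9.33, 9.90 and 10.96, so non-ventilated replicate 5 overlapped the ventilated range. It rose 4.91-fold (6.78-fold without that array), with 2.19 in the first step. The interleukin-1 receptor antagonist gene Il1rn rose 2.11-fold and Tnf 1.94-fold, Tnf reaching 9.07 in high stretch replicate 5 against at most 7.87 in the other high stretch arrays. The haematopoietic growth factor gene Csf2 fell (-0.31). Of 8 CXC chemokines that recruit neutrophils or act beside them, 5 rose and 1 fell. Cxcl5, made by alveolar epithelium, was at 5.88, 6.10, 5.66, 5.72 and 5.81 and at 6.87, 7.34 and 8.54, a rise of 3.22-fold without overlap, with 0.35 in the first step (adjusted p 0.44) and 1.34 in the second. Cxcl1 and Cxcl2, ligands of Cxcr2, rose 1.93-fold and 4.72-fold, and the highest non-ventilated Cxcl1 array (7.55) met the lowest ventilated one (7.50). Cxcl12, the ligand of Cxcr4 made by endothelium and stroma, fell 1.74-fold. CC chemokines, which recruit monocytes and lymphocytes, rose for 9 of 13 members with none lower. Ccl3 rose 4.95-fold and Ccl2 3.66-fold, and Ccl7 (0.04, then 1.28) changed in the second step while Ccl9 (1.24, then 0.09) changed in the first.

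Genes that interleukin-6 and its transcription factor STAT3 induce rose for 16 of 20 members, with none lower and a median of 0.78. Socs3, the feedback inhibitor of the receptor, went from 7.82, 7.87, 7.78, 7.73 and 7.75 to 9.92, 10.23 and 10.61. The groups did not overlap, and the rise was 5.41-fold (log2 2.44), or 1.75 on the log2 scale as the mean of its probe sets. The acute phase gene Saa3 rose 7.99-fold, the metalloproteinase inhibitor gene Timp1 3.43-fold and Fgl2, a fibrinogen-like protein of macrophages and endothelium, 2.7-fold (3.14-fold without non-ventilated replicate 5). Saa3 was at 3.19 in the first step and -0.19 in the second. In the list 14 members rose without non-ventilated replicate 5. Feedback genes of NF-kappaB, the transcription factor of acute inflammation, rose for 15 of 16 members. Bcl3, a nuclear member of the I-kappaB family, rose 3.76-fold, Tnfaip2 2.54-fold, Tnip3 2.16-fold and Nfkbiz 2-fold, each without overlap. Traf1, an adaptor of TNF receptors, fell (-0.52).

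Promoter stretches of genes with large rises are shown because NF-kappaB, AP-1, CREB family factors and NRF2 act through short sites whose letters can be read in them. All are from RefSeq on GRCm38.p6, plus strand, each the 120 bases next to or near the start, and the capitals mark every match to 1 motif on either strand. Capitals mark an NF-kappaB site in the cytokine gene Il6 (chr5:30012994-30013113) and the chemokine genes Cxcl1 (chr5:90891125-90891244) and Cxcl2 (chr5:90903779-90903898), AP-1 sites (TGANTCA) in the sulfiredoxin gene Srxn1 (chr2:152105402-152105521), an antioxidant response element core (TGACNNNGC) in the metallothionein gene Mt2 (chr8:94172498-94172617), and a CRE (TGACGTCA) in Maff (chr15:79347400-79347519), which encodes a small partner of NRF2 and AP-1.
Il6: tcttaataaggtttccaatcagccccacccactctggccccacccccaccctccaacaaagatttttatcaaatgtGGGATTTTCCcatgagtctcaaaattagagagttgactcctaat
Cxcl1: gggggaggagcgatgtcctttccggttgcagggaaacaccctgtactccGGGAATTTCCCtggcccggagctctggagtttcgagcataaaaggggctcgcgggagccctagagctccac
Cxcl2: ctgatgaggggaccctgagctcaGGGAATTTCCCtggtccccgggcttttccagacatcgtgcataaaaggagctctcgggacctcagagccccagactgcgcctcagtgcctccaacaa
Srxn1: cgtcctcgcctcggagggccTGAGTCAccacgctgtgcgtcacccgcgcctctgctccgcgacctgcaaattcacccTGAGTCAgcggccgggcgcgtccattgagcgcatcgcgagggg
Mt2: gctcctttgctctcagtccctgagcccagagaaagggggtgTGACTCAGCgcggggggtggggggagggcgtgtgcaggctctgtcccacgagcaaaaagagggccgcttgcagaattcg
Maff: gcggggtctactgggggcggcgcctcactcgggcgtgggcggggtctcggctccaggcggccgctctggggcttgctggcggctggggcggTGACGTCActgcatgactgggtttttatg

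The NF-kappaB matches began 44 bases before the start in Il6, 71 in Cxcl1 and 97 in Cxcl2, with overlapping matches on both strands in Cxcl1 and Cxcl2. The AP-1 matches of Srxn1 began 102 and 45 bases before the start. The match in Mt2 began 79 bases before it and holds an AP-1 match within it, since both motifs can share letters. In the 250 bases before the start, an NF-kappaB site stood in 13% of 100 promoters of named genes that rose, 9.09% of 66 of named genes that fell and 7.25% of 32841 promoters in all. For AP-1 these shares were 14, 7.58 and 6.75%, for the CRE 5, 1.52 and 1.55%, for the antioxidant response element core 12, 7.58 and 10.2%, and for the serum response element 4, 3.03 and 1.47%. The 4 promoters of named rises that held a serum response element all belonged to Egr2, which has several starts. RefSeq promoters were matched for 86 of 107 named genes that rose and 53 of 74 that fell. A match of letters is a description and does not show that a factor bound. Many of the named rises came from lists of NF-kappaB, immediate-early and NRF2 genes, so their motif shares may partly follow from that choice. The shares are no test of enrichment.

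Immediate-early transcription factors, which are induced within minutes by growth signals, calcium and strain, rose for 22 of 28 members and fell for 2, with a median of 0.99. Atf3, a stress-induced member of the ATF family, stood at 7.69, 7.54, 7.93, 7.71 and 7.67 without ventilation and at 9.96, 10.46 and 10.96 with it. The groups were far apart and the rise was 6.68-fold (adjusted p 4.54e-11). Egr2, a zinc finger factor, stood at 6.95, 7.05, 7.43, 6.84 and 6.96 and at 8.25, 9.05 and 9.46, again without overlap, and rose 3.9-fold. It was at -0.32 in the first step (adjusted p 0.373) and 2.29 in the second. Maff rose 4.66-fold and Myc, the growth-promoting factor, 4.5-fold. The list as a whole had a median of 0.06 in the first step and 0.77 in the second. Both members that fell, Klf2 (-0.93) and Klf4 (-0.28), encode factors that laminar blood flow maintains in endothelium. Feedback inhibitors of MAP kinases rose for 13 of 17 members: Spry4 rose 2.6-fold, Dusp16 1.85-fold, Dusp8 1.77-fold and Spred1 1.6-fold, while Dusp14 fell (-0.41). Dusp8 was at -0.22 in the first step (adjusted p 0.0702) and 1.05 in the second. Genes of the EGF receptor system rose for 8 of 16 members and fell for 2. The heparin-binding ligand gene Hbegf was at 9.91, 9.84, 9.78, 9.59 and 9.79 and at 10.64, 11.33 and 11.78, a rise of 2.83-fold without overlap, with 0.02 in the first step (adjusted p 0.973). Ereg, another ligand, rose 2.23-fold, P2ry2, an ATP receptor that acts upstream of ligand shedding, 1.83-fold and Rhbdf2, a cofactor of the sheddase ADAM17, 1.74-fold. Adam17 itself did not pass (0.02, adjusted p 0.815). Without non-ventilated replicate 5 this list had 6 members higher.

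Among epithelial genes the largest rises were in markers of injury. Sfn, which encodes the epithelial 14-3-3 protein sigma, stood at 7.60, 7.42, 7.37, 7.05 and 8.13 in the non-ventilated arrays and at 10.15, 10.45 and 11.08 in high stretch. The gap between the groups exceeded the spread within each, and the rise was 8.39-fold (3.07 ± 0.24, adjusted p 2.35e-12). The first step held 0.72 (adjusted p 0.0842) and the second 2.35. Cldn4, a claudin that tightens the alveolar barrier, was at 8.20, 8.06, 7.88, 8.13 and 7.88 and at 10.44, 10.70 and 11.53. It rose 7.06-fold without overlap, 0.25 in the first step (adjusted p 0.41) and 2.57 in the second. Of 15 genes of injured epithelium 11 rose and 1 fell. Tnfrsf12a, the receptor of TWEAK, rose 4.69-fold, and the simple epithelial keratin genes Krt8 and Krt18, which form 1 filament pair, rose 3.1-fold and 3-fold. Krt8 was at 0.02 in the first step and 1.62 in the second. Ly6d, a surface protein of squamous and lymphoid cells, fell (-0.88). Junction genes went both ways, with 8 of 17 higher and 5 lower: Cldn7 rose 1.67-fold, whereas Cldn8 fell 1.76-fold and the scaffold gene Tjp3 1.49-fold.

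Markers of the alveolar and airway cell types changed less. Of 18 alveolar type 2 genes 8 fell and 2 rose. The surfactant genes Sftpc (-0.01, adjusted p 0.816) and Sftpb (-0.06, adjusted p 0.322) did not pass. Etv5, an ETS factor that maintains type 2 cells, fell 1.57-fold, Lpcat1, which makes surfactant lipid, 1.52-fold and Abca3, its transporter, 1.27-fold, while the cathepsin gene Ctsh rose 1.29-fold. Among 15 alveolar type 1 genes 6 fell and 2 rose. Rtkn2 fell from 10.85, 10.98, 11.13, 10.96 and 11.09 to 9.62, 9.96 and 10.35, 2.03-fold without overlap, Gprc5a rose 1.27-fold and the defining marker Ager was at -0.04 (adjusted p 0.511). Akap5 (-0.36) lost its call without non-ventilated replicate 1, and Col4a4 (-0.24) without non-ventilated replicate 1 or 2 or high stretch normocapnia replicate 10. Of 12 club and goblet genes 5 fell and none rose (7 fell without non-ventilated replicate 5). Cckar, the cholecystokinin A receptor, went from 10.06, 10.12, 10.06, 9.88 and 9.79 to 8.02, 8.21 and 8.88, a fall of 3.25-fold with no overlap. The secretoglobin genes Scgb3a2 and Scgb3a1 fell 1.32-fold and 1.31-fold with overlapping arrays, and Scgb1a1 was at -0.04 (adjusted p 0.418). Reg3g (-0.40), an antibacterial lectin, lost its call without any of non-ventilated replicates 1 to 3 or high stretch normocapnia replicates 3 and 7. Genes of motile cilia, the beating hairs that clear mucus, fell for 13 of 17 members with none higher, and their median was -0.32. Rsph4a, a radial spoke protein, was at 8.78, 8.97, 8.75, 8.74 and 8.61 and at 7.22, 7.55 and 8.05, and fell 2.29-fold. Sntn, of the ciliary tip, fell 1.98-fold, the dynein gene Dnah5 1.47-fold and Foxj1, the factor that programs cilia, 1.33-fold, each without overlap.

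**Figure D3:**
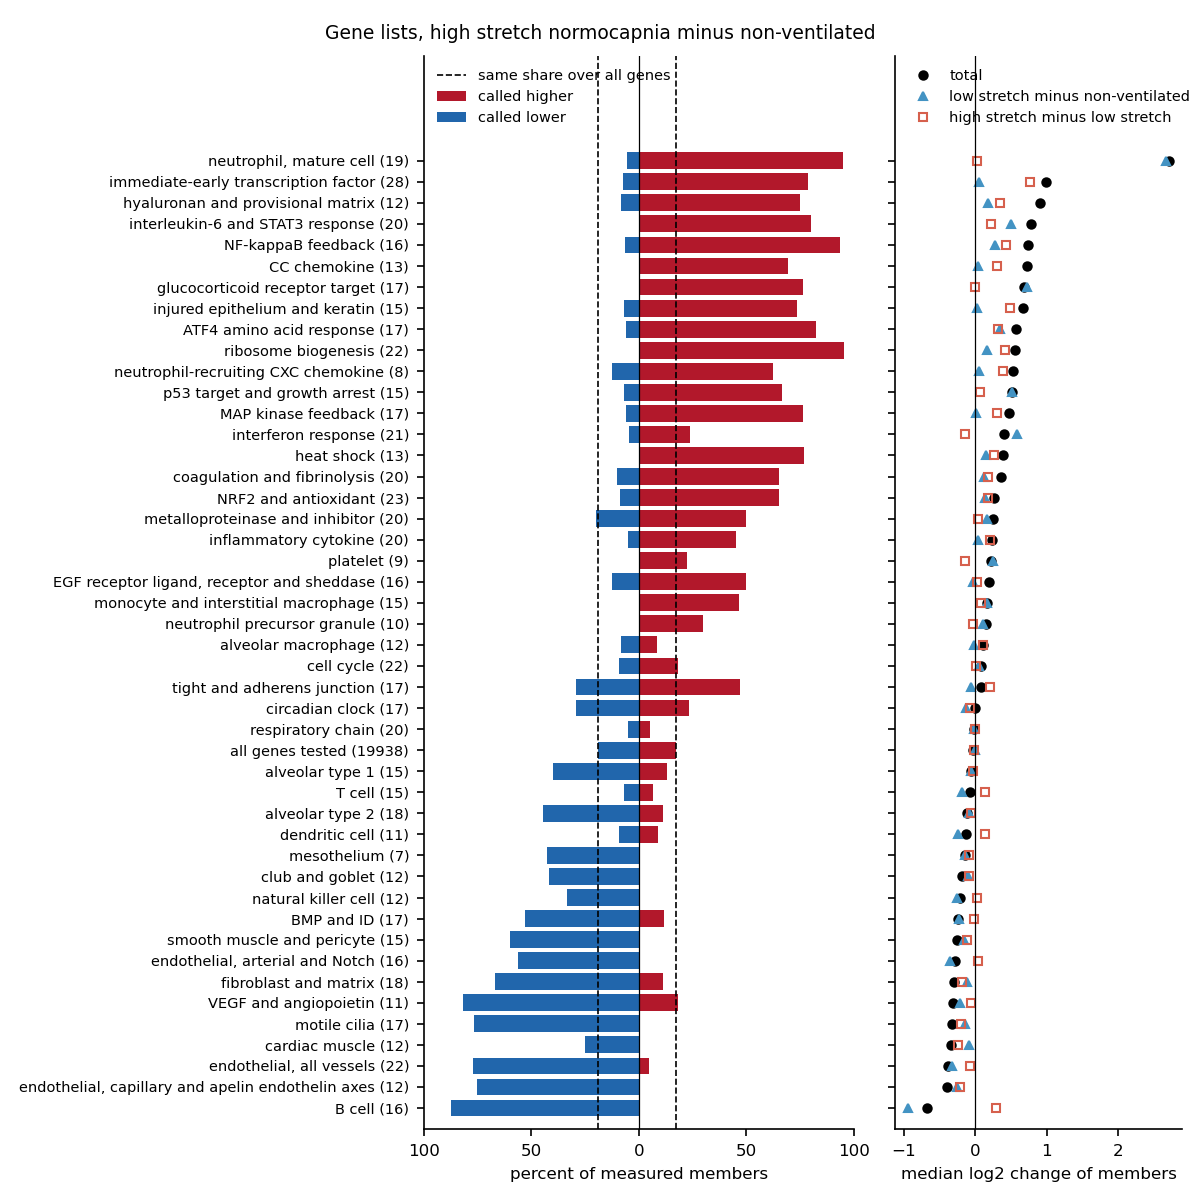
The left panel gives, for each gene list (number of measured members in brackets), the percent of members called higher (red) and lower (blue), with dashed lines at the shares over all genes, 17.4% and 18.9%. The right panel gives the median log2 change of the members in total (black), in the first step (blue) and in the second (open red); the mature neutrophil list lies at 2.71 in total and 2.67 in the first step, the immediate-early list at 0.99 in total and 0.77 in the second.

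Genes of clotting and of the provisional matrix, the fibrin and hyaluronan scaffold laid down in injured tissue, were mostly higher. Of 20 coagulation and fibrinolysis genes 13 rose and 2 fell. F3, tissue factor, the trigger of clotting, stood at 9.03, 9.28, 9.55, 9.50 and 9.07 and at 10.99, 11.25 and 11.51. Its groups did not overlap and it rose 3.86-fold (adjusted p 1.22e-15). Plaur, the urokinase receptor, rose 3.96-fold, the factor X gene F10 2.95-fold and the fibrinogen gene Fgg 2.69-fold. Without non-ventilated replicate 5 the rise was 3.25-fold in F10 and 2.35-fold in Fgg. F10 was at 1.52 in the first step and 0.04 in the second, and F3 at 0.43 and 1.52. The anticoagulant genes Thbd (-0.55) and Tfpi (-0.19), of thrombomodulin and the tissue factor inhibitor, were the pair that fell. Of 12 hyaluronan and provisional matrix genes 9 rose and 1 fell. Has1, a hyaluronan synthase, was at 6.53, 6.70, 7.03, 6.78 and 6.32 and at 8.14, 8.75 and 9.27, a rise of 4.29-fold without overlap. Tnfaip6 and Ptx3, which bind and cross-link hyaluronan, rose 4.01-fold and 3.1-fold, and the proteoglycan gene Vcan 4.44-fold. Vcan, which monocytes also express, was at 2.11 in the first step and 0.03 in the second. Metalloproteinases and their inhibitors went both ways, 10 of 20 higher and 4 lower. The versican-cleaving Adamts4 rose 3.57-fold, Mmp19 3.51-fold and Adamts9 2.23-fold, and Mmp28 fell (-0.90).

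Endothelial genes fell broadly. Of 22 genes shared by all vessels 17 fell (77.3%, against 18.9% over all genes) and 1 rose. In 13 of the 22 every high stretch array lay below every non-ventilated one, against 7.91% of all genes. The median of the list was -0.37, -0.33 in the first step and -0.07 in the second. Sox18, a vascular transcription factor, was at 9.69, 9.43, 9.33, 9.37 and 9.86 and at 8.05, 8.35 and 8.82, and fell 2.24-fold without overlap. Egfl7 fell 2.01-fold, Calcrl, the adrenomedullin receptor, 1.69-fold and Tek, the angiopoietin receptor, 1.69-fold. The junction markers Pecam1 (-0.17) and Cdh5 (-0.15) fell by less, and Esam, another endothelial adhesion gene, rose (0.27). Clec14a, a C-type lectin of endothelium, stood at 11.12, 11.08, 11.14, 11.14 and 11.07 in the non-ventilated arrays, a narrow range, and at 9.27, 9.65 and 9.91 in high stretch. It fell 2.85-fold (adjusted p 1.01e-10). Among 12 genes of capillaries and of the apelin and endothelin systems 9 fell and none rose. Aplnr, the apelin receptor, was at 9.91, 9.71, 9.46, 9.31 and 9.66 and at 7.59, 7.88 and 8.25. The groups were apart and the fall was 3.29-fold, with -1.48 in the first step and -0.24 (adjusted p 0.186) in the second. Edn1, which encodes the vasoconstrictor endothelin 1, went from 9.98, 9.87, 10.16, 10.39 and 10.07 to 8.17, 8.47 and 8.70 and fell 3.15-fold. The T-box gene Tbx2 fell 1.62-fold and the receptor gene Kit 1.61-fold, Kit in the second step (-0.07, then -0.62). Of 16 arterial and Notch genes 9 fell and none rose: the connexin gene Gja5 fell 2.22-fold, Hey1 1.66-fold, Nrarp 1.58-fold and the ligand gene Jag1 1.48-fold. All 11 measured VEGF and angiopoietin genes were called, 9 of them lower. Angpt2 fell 1.74-fold, Nrp1 1.53-fold and Angpt1 1.5-fold, while Angptl4, a lipase inhibitor that also answers to glucocorticoids, rose 2.08-fold.

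Of 17 BMP pathway and ID genes 9 fell and 2 rose. Tmem100, an endothelial target of BMP9 and ALK1, stood at 12.66, 12.59, 12.88, 12.74 and 13.05 and at 10.48, 10.81 and 11.16. All ventilated arrays were lower, and the fall of 3.9-fold (-1.96 ± 0.13, adjusted p 1.04e-13) was shared between the steps (-1.24, then -0.73). The inhibitory SMAD genes Smad6 and Smad7 fell 2.76-fold and 1.66-fold and Id4 1.65-fold. Other large falls were in Slc10a5, a member of the bile acid transporter family (3.08-fold), Glp1r, the receptor of glucagon-like peptide 1 (3.04-fold), Tnfsf10, the death ligand TRAIL (2.99-fold), the transcription cofactor gene Lbh (2.67-fold) and Map2k6, an activator of p38 kinases (2.65-fold). None of the 5 had arrays that overlapped between the groups. Stromal markers fell as well. Of 18 fibroblast and matrix genes 12 fell and 2 rose (9 fell without non-ventilated replicate 5), among them Fgf10, a growth factor for epithelial progenitors (1.72-fold), Tcf21 (1.6-fold), Wnt2 (1.48-fold) and Slit2 (1.44-fold). Of 15 smooth muscle and pericyte genes 9 fell and none rose, with Notch3 1.29-fold, Actg2 1.28-fold, Acta2 1.28-fold and Myh11 1.25-fold lower.

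Oxidative stress genes held the largest single rise. Slc7a11, the cystine transporter that feeds glutathione synthesis, stood at 6.63, 7.01, 6.41, 6.34 and 6.72 without ventilation and at 10.83, 11.18 and 11.64 in high stretch. The gap between the groups was wider than the range within either, and the rise was 23.9-fold (4.58 ± 0.27, adjusted p 4.35e-15). The steps held 3.23 and 1.35. Hmox1, the enzyme that degrades heme, was at 8.82, 8.90, 8.83, 8.49 and 8.82 and at 10.90, 11.48 and 12.10, a rise of 6.45-fold without overlap. Srxn1, which repairs oxidised peroxiredoxins, rose 6.43-fold and Gclc, the first enzyme of glutathione synthesis, 3.45-fold. Of 23 NRF2 and antioxidant genes 15 rose and 2 fell, and the median of the list was 0.27. Those that fell were catalase, Cat (-0.51), and the glutathione transferase gene Gstm1 (-0.18). Targets of ATF4, the factor of amino acid shortage, rose for 14 of 17 members. The mitochondrial folate enzyme gene Mthfd2 rose 3.74-fold, the amino acid transporter genes Slc7a5 and Slc7a1 3.01-fold and 2.71-fold, and the serine synthesis gene Psat1 2.68-fold. Vldlr, a lipoprotein receptor, fell (-0.30).

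Glucocorticoid receptor targets rose for 13 of 17 members with none lower and a median of 0.68. Mt2, a metallothionein that binds zinc, was at 10.77, 10.27, 10.46, 10.57 and 10.27 and at 13.01, 13.30 and 13.43. No arrays overlapped and the rise was 6.97-fold (adjusted p 4.35e-15). Fkbp5, a chaperone of the receptor, stood at 8.27, 8.52, 9.32, 10.01 and 9.53 in the non-ventilated arrays, which differed among themselves by more than 1 log2 unit, and at 11.01, 11.47 and 11.73 in high stretch. It rose 4.97-fold, with 2.46 in the first step and -0.15 in the second. Mt1 rose 4.42-fold and Pdk4, which restrains glucose oxidation, 4.21-fold. The median of the list was 0.72 in the first step and 0.00 in the second. Of 13 heat shock genes 10 rose and none fell. Hspa1a, the inducible HSP70, rose 2.81-fold with overlap, the small chaperone genes Hspb8 and Hspb1 1.95-fold and 1.54-fold, and Dnajb1 1.56-fold. Hspb1 was at 10.91 in high stretch replicate 1 and at most 10.11 in the others. Among 15 p53 and growth arrest genes 10 rose and 1 fell: Plk3 rose 4.04-fold, Gadd45a 2.79-fold, Gadd45g 2.42-fold and the death receptor gene Fas 1.93-fold, and Ccng1 fell (-0.18). Ribosome biogenesis genes rose for 21 of 22 members, with a median of 0.55 (0.17 in the first step and 0.41 in the second). The nucleolar genes Gnl3 and Nop58 rose 2.25-fold and 2.2-fold, Rrp12 1.94-fold and Heatr1 1.83-fold. Genes of the cell cycle, in contrast, were called for 6 of 22 members, 4 higher and 2 lower, among them Pcna at 0.40, Mcm2 at -0.39, Ccnd1 at -0.36 and Plk1 at 0.26, the last losing its call without non-ventilated replicate 3, when 1 of the list was higher (2 without high stretch normocapnia replicate 4 or 5). In the respiratory chain 1 of 20 rose, cytochrome c (Cycs, 0.45), and 1 fell, Sdha (-0.16). The shares of the cell cycle and respiratory chain lists lay near or below those over all genes (17.4% higher and 18.9% lower).

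Markers of other leukocytes went different ways. B cell genes fell for 14 of 16 members with none higher and a median of -0.68. Ms4a1, the B cell antigen CD20, stood at 8.71, 8.02, 8.39, 8.09 and 8.40 and at 7.05, 7.22 and 7.74, without overlap, and fell 2.03-fold. Cr2, a complement receptor, fell 2.02-fold, Cd79a, of the B cell receptor, 1.83-fold and the Fc receptor gene Fcer2a 1.79-fold. Low stretch arrays were lower still: the list had a median of -0.94 in the first step and 0.29 in the second, and Ms4a1 was at -1.45, then 0.43. T cell genes were called for 2 of 15 members, Il7r higher (0.45) and Cd2 lower (-0.36), and the defining marker Cd3e was at -0.08 (adjusted p 0.521). With non-ventilated replicate 1 left out, T cell genes were higher for 2 members and natural killer genes lower for 2. Natural killer genes fell for 4 of 12, with overlapping arrays in each: Ncr1 was at -0.61, Klra8 at -0.59, Nkg7 at -0.39 and Klre1 at -0.31. Nkg7 lost its call without non-ventilated replicate 1 or 4 or high stretch normocapnia replicate 4, and Klre1 without any of non-ventilated replicates 1, 2, 3 and 5 or high stretch normocapnia replicates 9 and 10. Monocyte and interstitial macrophage genes rose for 7 of 15 with none lower. F13a1, the factor XIII subunit of monocytes, rose 3.32-fold, the endotoxin co-receptor gene Cd14 2.51-fold, the Fc receptor gene Fcgr1 2.5-fold and the chemokine receptor gene Ccr2 2.41-fold. F13a1 (9.80) and Ccr2 (9.99) were highest, among non-ventilated arrays, in replicate 5, and rose 3.96-fold and 2.98-fold without it. Alveolar macrophage genes were called for 2 of 12, Mrc1 higher (0.53) and Car4, which capillaries also express, lower (-0.18), and the marker Marco was at 0.29 (adjusted p 0.0519). The count of higher alveolar macrophage genes was 4 without non-ventilated replicate 3, 3 without high stretch normocapnia replicate 2 and 2 without replicate 3, 4, 7 or 10 of that group. Dendritic cell genes were called for 2 of 11, Flt3 (0.30) and Ccr7 (-0.30), and 2 were higher without high stretch normocapnia replicate 2 or 4. Car4 lost its call without any of non-ventilated replicates 3 to 5 or high stretch normocapnia replicates 2, 4 and 5, and Ccr7 without any of non-ventilated replicates 1, 3, 4 and 5 or high stretch normocapnia replicates 4, 5 and 9. Platelet genes rose for 2 of 9, Pf4 (0.34) and Gp5 (0.30), and Pf4 lost its call without any of non-ventilated replicates 2 and 4 or high stretch normocapnia replicates 1, 3, 7 and 8, when 1 of the list was higher. The shares of platelet genes called higher (22.2%) and of T cell, dendritic and alveolar macrophage genes called in either direction (6.67, 9.09 and 8.33% each way) lay near or below those over all genes. Of 12 cardiac muscle genes, which mark the sleeves of the pulmonary veins, 3 fell and none rose: Actc1 (-0.71), Pln (-0.60) and Ryr2 (-0.42). The share of that list called lower, 25%, lay near the 18.9% over all genes. In that list 7 members were lower without high stretch normocapnia replicate 9. The mean of that list ran from 8.78 to 9.14 over the non-ventilated and from 8.11 to 9.11 over the high stretch arrays. Of 7 mesothelial genes 3 fell: Lrrn4 (-0.67), Gpm6a (-0.29) and Upk3b (-0.23), the last losing its call without any of non-ventilated replicates 1 to 3 or high stretch normocapnia replicates 8 and 10. The part of heart, pleura or upper airway tissue in other results was not tested.

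Clock genes included the largest fall. Dbp, an output factor of the circadian clock, stood at 9.45, 10.44, 10.61, 10.40 and 8.58 and at 6.89, 7.86 and 8.76, so the lowest non-ventilated array, replicate 5, overlapped the ventilated ones. It fell 4.05-fold (-2.02 ± 0.36, adjusted p 2.26e-05) and 5.08-fold without that array. Per3 and Hlf, other rhythmic genes, fell 2.33-fold and 1.9-fold, while Nfil3, the repressor that opposes Dbp, rose 3.4-fold without overlap. Of 17 clock genes 4 rose and 5 fell (23.5% and 29.4%, against 17.4% and 18.9% over all genes). Among non-ventilated arrays the mean of this list was lowest in replicates 1 (8.62) and 5 (8.68), with 9.05 to 9.24 in the others. Of its members 6 fell without replicate 5, and 8 without replicates 1 and 5. The labels give no hour of sampling. Interferon response genes rose for 5 of 21 members and fell for 1, or 23.8% and 4.76%, the first near and the second below the shares over all genes. Cxcl10, an interferon-induced chemokine, was at 7.32, 7.50, 7.22, 7.16 and 6.79 and at 7.92, 9.12 and 11.14, and rose 4.68-fold without overlap. The antiviral synthetase genes Oas3 and Oas2 rose 2.32-fold and 2.05-fold. Zbp1 (0.63), a nucleic acid sensor, had an adjusted p of 0.0437 that rose above 0.05 without any of non-ventilated replicates 2 to 4 or high stretch normocapnia replicates 5, 6, 7, 8 and 10, and Ifit2 fell (-0.45). In the interferon list 3 members were higher without non-ventilated replicate 4.

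The other lists gave the following counts, against 17.4% higher and 18.9% lower over all genes. Toll-like receptors and myeloid sensors rose for 11 of 17 members and fell for 1, hypoxia and glycolysis genes rose for 10 of 18 and fell for 2, endoplasmic reticulum chaperones rose for 7 of 17 and fell for 1, and leukocyte adhesion genes rose for 7 of 13 and fell for 3. Metallothionein and zinc transporter genes rose for 5 of 10 and fell for 1, and cholesterol genes rose for 5 of 17 (29.4%) and fell for 2 (11.8%). Targets of YAP and the CCN genes rose for 5 of 17 (29.4%) and fell for 3 (17.6%), and heme and iron genes rose for 3 of 10 (30%). Genes of alveolar fluid transport rose for 3 of 12 (25%) and fell for 4 (33.3%). Mast cell and basophil genes fell for 1 of 9 (11.1%), and none of 3 measured erythroid genes was called. Prostaglandin and leukotriene genes rose for 5 of 21 (23.8%) and fell for 2 (9.52%), with a median of 0.01. Ptgs2, the inducible cyclooxygenase, was the largest of them: it stood at 8.65, 9.07, 8.81, 8.30 and 8.49 and at 11.37, 11.67 and 12.31, did not overlap, and rose 8.42-fold (0.93 in the first step and 2.14 in the second). Alox5, the 5-lipoxygenase of leukotriene synthesis, rose 1.38-fold (adjusted p 8.17e-05) with overlapping arrays.

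A change called in the total can be called in neither step. Leaving out predicted genes, small RNAs and the like, the 6 largest of that kind were Cxcl2, Cxcl10, Dbp, Hspa1a, Spic and Fcgr1. Cxcl2 was at 1.43 (adjusted p 0.0511) and 0.81 (adjusted p 0.212) in the steps and 2.24 in total. Spic, a factor of red pulp and heme-exposed macrophages, stood at 4.83, 4.88, 5.12, 5.14 and 4.60 and at 5.78, 6.30 and 7.57 without overlap, a rise of 2.75-fold, and its steps were 0.82 and 0.64. The reverse pattern is a total that is not called although both steps were called in opposite directions. The low stretch mean enters both steps with opposite sign, so variation of those 5 arrays alone also moves the steps in opposite directions. Of such genes, the 6 with the largest smaller step were Acsm3, Gjb6, Lpin1, Acss3, Rrad and Sh3rf2. Lpin1, a lipid phosphatase and cofactor of fasting metabolism, read 9.10, 9.34, 9.82, 10.03 and 9.44 in the non-ventilated arrays and 9.30, 9.57 and 10.13 in high stretch, fully overlapping, with steps of 0.81 and -0.75 and a total of 0.06 ± 0.13 (adjusted p 0.788). The medium-chain fatty acid enzyme gene Acsm3 (0.93, then -0.85), the connexin gene Gjb6 (0.76, then -0.80) and the short-chain enzyme gene Acss3 (0.69, then -0.89) were higher at low stretch than in either other group. The small GTPase gene Rrad (-0.66, then 0.89) and Sh3rf2 (-1.07, then 0.65) were lower there. Rrad passed in total without non-ventilated replicate 1 (0.32, adjusted p 0.012), and Acss3 without the same array (-0.34, adjusted p 0.0466). Ttpa, whose protein carries alpha-tocopherol, was of this kind too: it read 6.18, 6.19, 6.53, 6.34 and 6.25 and 5.61, 6.22 and 6.47, with steps of 0.60 and -0.75 and a total of -0.15 ± 0.14 (adjusted p 0.44).

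**Figure D4:**
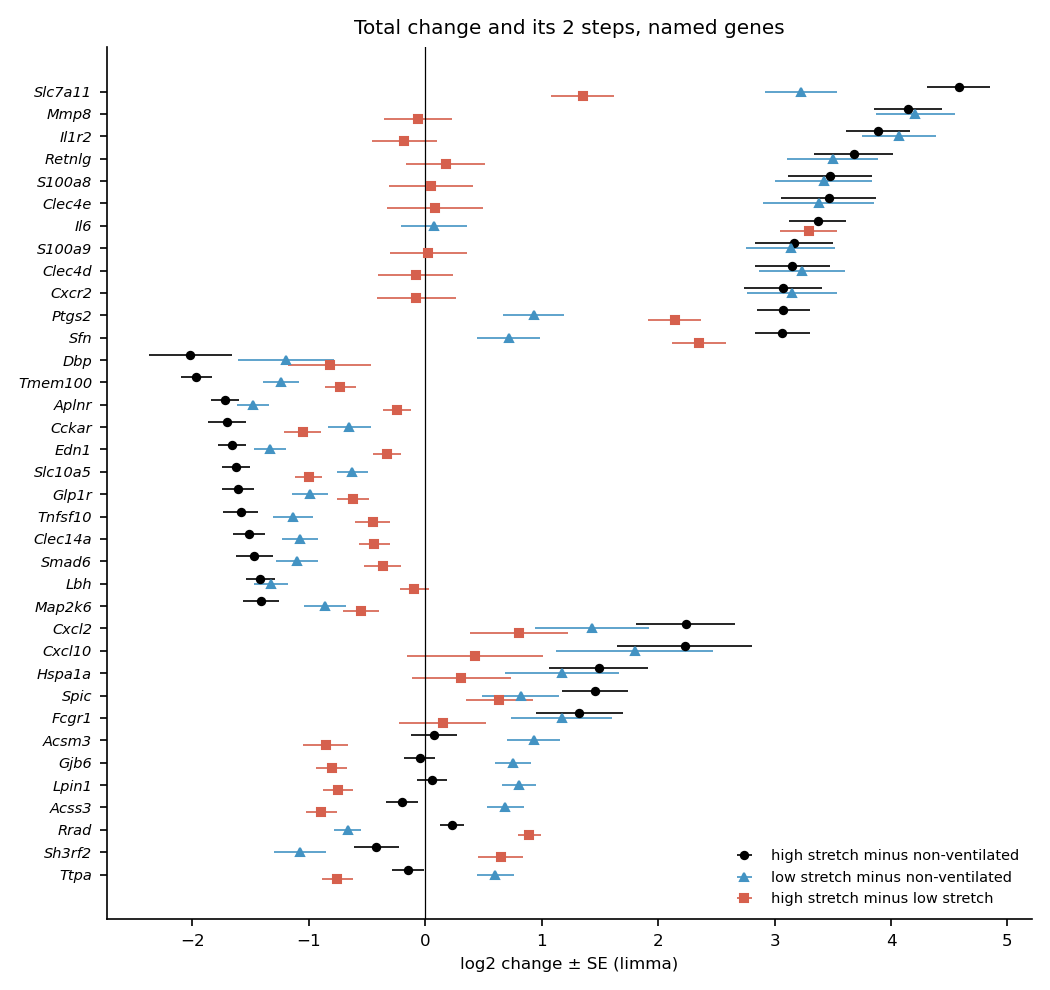
For each named gene the x axis gives the log2 change ± SE of the total (black circles, high stretch minus non-ventilated), the first step (blue triangles, low stretch minus non-ventilated) and the second step (red squares, high stretch minus low stretch), from 1 limma fit over 35 arrays. Il6 and Sfn lie far from 0 in the second step, Mmp8 and the other neutrophil genes in the first, and the 7 genes with opposed steps have totals that were not called.

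The 10 high stretch lungs also differed among themselves. The widest ranges among called genes were in Cxcl10, Ephx1, Ngp, Saa3, Acod1 and Hspa1a. Cxcl10 ran from 7.92 to 11.14, and replicates 5, 7 and 8 were the highest, from 10.9 upward, with 9.63 the highest of the others. Acod1, the itaconate-making enzyme of activated myeloid cells, read 6.53, 6.25, 5.73, 6.39 and 6.74 without ventilation and 8.03, 8.85 and 10.48 in high stretch, highest in replicate 5, and rose 6.17-fold. Ngp was lowest in replicate 2 (6.95), which also had the lowest mean of mature neutrophil genes (9.48). Ephx1, an epoxide hydrolase, read 8.20 in replicate 4 and at least 10.61 in the other 9. Its fall (-0.78, adjusted p 0.0411) was -0.49 without that array (adjusted p 0.017), and it lost its call without any of non-ventilated replicates 2 to 5 or high stretch normocapnia replicates 8 and 9. Over the 10 arrays the mean of the mature neutrophil genes ranged from 9.48 to 10.59, that of the B cell genes from 7.09 to 7.50 and that of the cilia genes from 7.83 to 8.19.

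**Figure D5:**
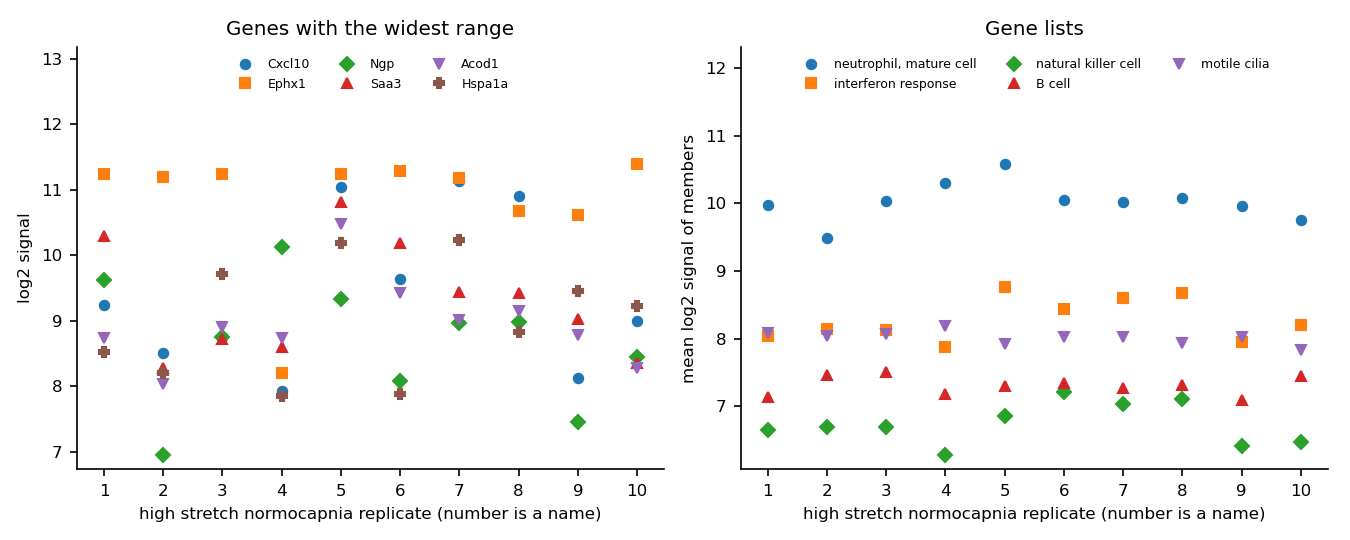
Both panels show the 10 high stretch normocapnia arrays along the x axis by replicate number, which names the array and sets no order. The left panel plots the log2 signal of the 6 called genes with the widest range, with Ephx1 low in replicate 4 alone, and the right panel the mean log2 signal of 5 gene lists, of which the interferon list is highest in replicate 5 and the natural killer list in replicate 6.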

How the data were processed

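RNA of whole lung was measured on Affymetrix arrays, 1 per animal, and the deposited series table holds log2 values for 35557 probe sets on 35 arrays. The submitters' processing notes name RMA, Affymetrix Expression Console and Partek, without versions or roles, and the genome build is not given in the sources used here. No further normalization was applied. A table of GEO's platform annotation gave exactly 1 symbol to 21789 probe sets, several to 1621 and no entry to 12147, which are unnamed here. Symbols were checked by gene ID against RefSeq of GRCm38.p6, and 0 changed. Each of 19938 genes was represented by its brightest probe set (mean of 35 arrays); 999 had several.

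The 5 group means of 35 arrays were fitted in limma 3.58.1 (lmFit and eBayes) in R 4.3.3, so that all groups share 1 estimate of the spread, and p-values were adjusted by Benjamini-Hochberg over all 19938 genes. A gene was called at an adjusted p under 0.05. Fold changes are ratios of geometric means, computed here from the deposited log2 values. The labels call the animals separate and randomized to groups, and give no batch or scan date. The 57 gene lists hold 939 members, of which 873 were measured; the others are not analysed here. Members, lists and naming rules were chosen with earlier results of these data known. Genes were named as the 12 largest rises and falls, up to 4 called members per described list with defining markers, the 6 largest called in neither step, the 6 with opposed steps, the 6 with the widest range within high stretch, and Ttpa, Adam17 and Alox5, which the laboratory had studied; members that went against their list and the squamous genes were chosen after their values were seen. Promoters were searched in the 250 bases before each RefSeq start, both strands, each motif counted also where it overlaps another.

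On simulated data with 19938 genes for this comparison, changes of 0.3 log2 units were recovered in 48%, of 0.6 in 100%, of 1 in 98% and of 2 in 100% of genes, and 5.98% of calls were unchanged genes. Only 50 genes were changed at each size, far fewer than the 7237 called in the data. The adjustment was therefore stricter than in the data, and these recovery rates do not carry over to the comparison. Alternatives were the 15 arrays alone, array weights, the replicate number as a block, trended and robust eBayes, only genes above the median level, all or averaged probe sets, median centring, a second quantile normalization, and each array left out. Leaving out the lowest-spread arrays or non-ventilated replicates 1 and 5, and the array spread as a covariate, were added after seeing the data.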

Additional observations from a re-analysis of the deposited data

Results flagged for a closer look

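A single array far from the others of its group was searched for in each named gene and group. Without the 10 squamous genes, which were named because non-ventilated replicate 5 was high in them, 19 of 378 groups held such an array, about the 1 in 20 that chance gives, and replicate 5 was that array in 6. The squamous genes added 9, of which 8 are replicate 5, and these are a description of what they were chosen for. They were high in it (log2 signal, with the nearest other non-ventilated array): Krt4 (11.24, with the nearest at 5.21), Krt13 (11.76, with the nearest at 6.08), Krt5 (9.02, with the nearest at 6.86), Krt14 (7.06, with the nearest at 6.57), Sprr3 (10.69, with the nearest at 5.24), Krtdap (10.55, with the nearest at 4.76), Dsg3 (6.50, with the nearest at 5.10) and Rptn (8.14, with the nearest at 5.37). Myeloid genes and the clotting factor gene F10 were high in it as well, as for Ccl9 (8.93, with the nearest at 8.18), Fgl2 (10.02, with the nearest at 9.06), F10 (8.13, with the nearest at 7.56) and F13a1 (9.80, with the nearest at 8.62), and Fgg (5.08, with the nearest at 6.03) and Slc7a5 (7.57, with the nearest at 8.00) were low. Non-ventilated replicate 1 stood apart for the B cell genes Cr2 (7.73, with the nearest at 7.01) and Cd79a (9.22, with the nearest at 8.62), both high, and for Id4 (8.57, with the nearest at 8.89), low. Non-ventilated replicate 4 was low for P2ry2 (7.93, with the nearest at 8.08) and Hmox1 (8.49, with the nearest at 8.82).

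Among the high stretch arrays, replicate 1 was high for Adamts4 (8.83, with the nearest at 8.02) and Hspb1 (10.91, with the nearest at 10.11), replicate 2 was high for Krt4 (5.84, with the nearest at 5.17) and replicate 4 was low for Ephx1 (8.20, with the nearest at 10.61). Further, replicate 5 was high for Tnf (9.07, with the nearest at 7.87) and Oas3 (8.63, with the nearest at 8.05), replicate 6 was high for Adam17 (10.31, with the nearest at 10.12) and replicate 9 was high for Smad6 (9.15, with the nearest at 8.77) and Hey1 (9.35, with the nearest at 8.96). Of the 12147 probe sets that the gene table does not list, 1719 (14.2%) were called between high stretch normocapnia and non-ventilated lungs, 1136 higher and 583 lower, against 36.3% of the genes with a symbol. They enter no result of the report.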

How the results depend on the processing

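The count of called genes stayed within 1.5 times the reported 7237 under all 27 alternatives, as did those of higher and lower genes. The fits of genes above the median level and of all probe sets tested other numbers of genes or probe sets, so their counts are not directly comparable. The count was 7035 with only the 15 arrays, 7254 with centred arrays and 7880 when the spread of each array entered as a covariate. Among genes brighter than the median it was 5883. Leaving out 1 array gave 6479 (non-ventilated replicate 2) to 7428 (high stretch normocapnia replicate 2), and 6499 remained without non-ventilated replicates 1 and 5. The replicate block gave 6217 calls, 2966 higher and 3251 lower. Same-numbered arrays of the groups had correlations of deviations of -0.02, 0.26, -0.14, -0.28 and 0.09, which differ in sign. For non-ventilated replicate 2 the best match among the high stretch arrays was the one of the same number. Whether same-numbered arrays shared a day or batch was not tested. Of 181 called genes among 199 named, 164 kept the call in every alternative, 17 lost it in some (9 under the block), and no called gene changed direction. Rrad, Acss3, Sh3rf2 and Rptn, which did not pass, passed in some. The alternatives gave 2 to 7 lower alveolar type 1 genes (reported 6), 6 to 10 higher inflammatory cytokines (reported 9) and 6 to 9 lower VEGF and angiopoietin genes (reported 9). The cause was not tested. The simulation recovered 48% of changes of 0.3 log2 units, but with far fewer changed genes than were called here. It therefore sets no limit of recovery for this comparison.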

Other observations

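Within high stretch, the mean log2 signal of the 21 interferon response genes was highest in replicates 5, 8, 7 and 6, at 8.77, 8.67, 8.60 and 8.44, and lay between 7.88 and 8.20 in the other 6. The mean of the 12 natural killer genes was highest in the same 4 arrays, at 6.86, 7.11, 7.03 and 7.21, and at most 6.70 in the other 6. In the non-ventilated arrays the interferon mean ran from 7.74 to 8.00 and the natural killer mean from 6.92 to 7.06. Cxcl10, a member of the interferon list, was also highest in replicates 5, 7 and 8. This order was seen after the values were known and is given as a description, with no test.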
